A study of Homo sapiens with 12 samples.

Results

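The genes described here encode the machinery that copies DNA and rebuilds chromatin behind the replication fork. They are 39 genes chosen by their function, and each was found by symbol and Ensembl identifier among the 56747 genes listed in both deposited count tables. They fall into 7 roles, namely origin firing, polymerases and primase, the sliding clamp and its loaders, single-strand binding, Okazaki fragment processing, fork coupling and protection, and chromatin assembly. The question was how their transcripts responded to palbociclib in 2 human prostate cancer cell lines, and whether the response differed between the lines.

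A human replication origin is marked in G1 by the origin recognition complex and loaded with the MCM helicase. In S phase the CDC7-DBF4 kinase fires it, and CDC45 and the GINS complex join MCM to form the active CMG helicase. Polymerase alpha with primase starts each new strand, the RFC complex loads the ring-shaped clamp PCNA, and polymerases epsilon and delta extend the leading and lagging strands. FEN1 and LIG1 join the lagging-strand pieces, while CAF-1 and ASF1 place histones on the new DNA. Many of these genes are known targets of E2F transcription factors, which the RB1 protein restrains until CDK4 and CDK6 phosphorylate it. Palbociclib inhibits those kinases.

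Total RNA was sequenced from cells labelled DU145 with palbociclib, DU145 with DMSO (the solvent control), C4-2 with palbociclib and C4-2 with DMSO. All were cultured with fetal bovine serum, and no allele or further agent is named in the labels. DU145 is an established prostate carcinoma line of brain origin in which RB1 is known to be non-functional, and C4-2 is a line derived from LNCaP. Neither the dose nor the duration of treatment was stated in the labels. Nor do they state that a group's libraries are independent cultures, and p-values here reflect library-to-library spread that may be technical. Each group had 3 libraries except C4-2 DMSO, which had 2, because the column of its replicate 3 held 0 for every gene and was left out. The 6 DU145 libraries held 16108999 to 16674393 counts and the 5 used C4-2 libraries held 2608851 to 3489659, so single genes were measured less precisely in C4-2. CPM below means counts scaled to the library total, and n is 3 libraries per group, or 2 for C4-2 DMSO. A CPM value followed by ± is a mean with its SD. The libraries numbered 3 in DU145 stood apart from their group, with a chi-square per degree of freedom (1 for counting noise alone) of 5.41 to 8.34 against the other libraries of the group, compared with 2.36 and 2.37 between replicates 1 and 2. Within the C4-2 groups it was 1.14 to 1.18, close to counting noise alone, so the p-values of that line rest on a very small spread between libraries.

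The line labels were set against marker transcripts. In the libraries labelled DU145, the keratin KRT8 was at 1264 to 1352 CPM with palbociclib and 1681 to 1833 CPM with DMSO, and CDKN2A, listed as a DU145 marker, at 364 to 470 CPM and 368 to 419 CPM. The epithelial genes CDH1 and EPCAM, also listed as DU145 markers, stayed at or under 2.17 CPM, which goes against that label. In the libraries labelled C4-2, KLK3, KLK2 and FOLH1, which luminal prostate cells express, had 0 counts in every library, and the mesenchymal gene FN1 was at 18757 to 18983 CPM with palbociclib and 20827 to 20926 CPM with DMSO. These values go against the label, and the line names below stand for the libraries so labelled.

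The marker lists also moved with treatment. The 6 DU145 markers summed to 2432 to 2683 CPM with palbociclib and 3596 to 3983 CPM with DMSO in DU145, and to 412 to 447 CPM and 1045 to 1053 CPM in C4-2. The 7 C4-2 markers found in the tables summed to 14.7 to 17.3 CPM with palbociclib and 25.9 to 32.5 CPM with DMSO in DU145 (4 at 0 in every library), and to 35.8 to 41.4 CPM and 42.1 to 44.4 CPM in C4-2 (3 at 0). The 6 mesenchymal markers summed to 319 to 334 CPM with palbociclib and 364 to 376 CPM with DMSO in DU145, and to 24679 to 24965 CPM and 27082 to 27140.2 CPM in C4-2. The 6 leukocyte and endothelial markers summed to 3.70 to 5.31 CPM with palbociclib and 0.683 to 1.10 CPM with DMSO in DU145, with PTPRC and CD3E at 0 in every library, and to 1.04 to 3.07 CPM and 3.15 to 3.65 CPM in C4-2, with CD68 at 0. Most of that sum in DU145 palbociclib libraries was CD14, at 3.15 to 4.10 CPM, against 0.305 to 0.372 CPM in DU145 DMSO libraries. In C4-2 CD14 was at 0.592 to 1.92 CPM with palbociclib and 0.332 to 0.860 CPM with DMSO. The part of these marker lists in the results below was not tested.

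The fork genes together took up a slightly smaller share of the counts with palbociclib in DU145, and a much smaller one in C4-2. Their summed level was 3294, 3322 and 3306 CPM in DU145 palbociclib libraries, against 3484, 3498 and 3501 CPM in DU145 DMSO libraries. In C4-2 it was 1062, 1063 and 1084 CPM with palbociclib, against 2311 and 2361 CPM with DMSO. The sums did not overlap between treatments in either line, and the mean was 5.36% lower in DU145 and 54.2% lower in C4-2. A drop in such a sum cannot tell fewer cells in S phase apart from less RNA per cell.

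Gene by gene, the lines differed in how many fork genes moved and in which direction. In DU145 all 39 were tested with edgeR's quasi-likelihood test, and 7 rose, 18 fell and 14 were not called at an adjusted p of 0.05. Across all 15361 genes tested in DU145, 28.8% were called higher and 29.2% lower. In C4-2, 38 were tested, 37 fell, 0 rose by edgeR (also 0 at an unadjusted p under 0.05, and 0 by DESeq2), and POLE2 was not called, whereas 26.6% of all 11943 tested genes were called lower and 25.2% higher. The remaining gene, RNASEH2A, had 0 to 2 counts per C4-2 library and did not pass the filter on low counts. The median log2 fold change of the fork genes was -0.13 in DU145 and -1.36 in C4-2, beside medians of -0.01 and 0.0015 over all tested genes. Without both DU145 libraries numbered 3, 7 fork genes rose and 21 fell in that line. Of all 15544 genes tested in that fit, 4656 were called higher and 4687 lower.

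Set side by side, the calls divided the fork genes into groups. The largest group, 17 genes, fell in both lines, among them CDC45, GINS2, LIG1, CLSPN, TIMELESS and the primase and polymerase genes POLA1, POLA2, PRIM1 and POLE. Another 13 were not called in DU145 and fell in C4-2, including PCNA, ORC1, the polymerase delta genes POLD1, POLD2 and POLD3 and the 3 chromatin assembly genes. The 7 that rose in DU145 and fell in C4-2 were ORC6, FEN1, GINS3, GINS4, GINS1, PRIM2 and RFC3. POLE2 fell in DU145 and was not called in C4-2. Over all tested genes, 28.8% were called higher and 29.2% lower in DU145, and 26.6% lower in C4-2. The share of all genes in each of these groups was not computed, so the group sizes only describe the fork genes. Over the 38 genes tested in both lines, the log2 fold changes had a Pearson r of 0.23 and a Spearman rho of 0.18, a description across genes that share libraries within each line.

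**Figure D1:**
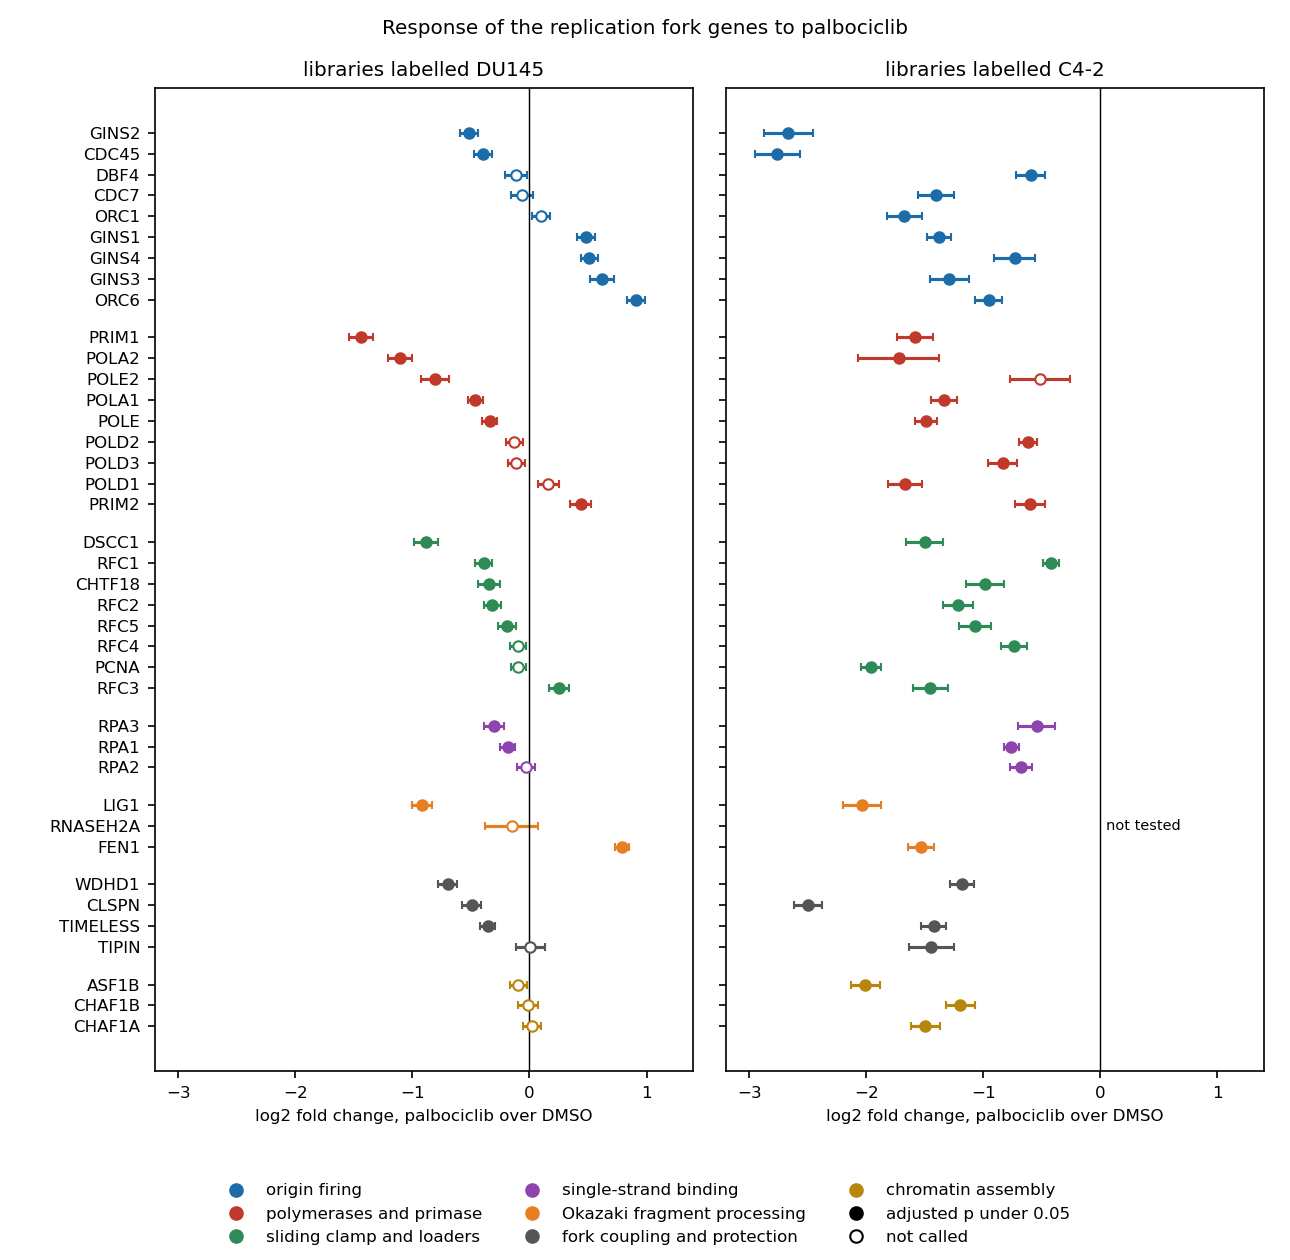
Log2 fold change of each fork gene (palbociclib over DMSO, bars show SE) in DU145 on the left and C4-2 on the right, grouped by role, with filled points for an adjusted p under 0.05. All tested points lie left of 0 in C4-2, from -2.76 to -0.42, whereas DU145 points run from -1.44 to 0.91.

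The promoters of these genes were searched for the sequence words that E2F factors are known to prefer. RefSeq windows (GRCh38.p14) of 250 bases before to 50 after a transcription start were on hand for 34 of the 39 genes. One of the words TTTGGCGC, TTTCCCGC, TTTGCCGC or TTTCGCGC lay on either strand in 13 of the 34 (38.2%), and in 3.99% of the 27305 genes with a window. Sites from 9 genes follow, 3 for each of 3 patterns of response. Each is shown as 28 bases of the gene's strand in the 5′ to 3′ direction with the word in capitals.
GINS1, GINS3 and RFC3 rose in DU145 and fell in C4-2.
GINS1 chr20:25407668-25407695, plus strand: gctttgttcgGCGCCAAAgcgcggagcg
GINS3 chr16:58392456-58392483, plus strand: gtccccgggcGCGGGAAAcgagtttcaa
RFC3 chr13:33818084-33818111, plus strand: tttggagctcGCGGGAAAacttgtctct
GINS2, CLSPN and LIG1 fell in both lines.
GINS2 chr16:85688968-85688995, minus strand: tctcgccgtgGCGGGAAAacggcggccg
CLSPN chr1:35769966-35769993, minus strand: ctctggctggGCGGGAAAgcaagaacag
LIG1 chr19:48170441-48170468, minus strand: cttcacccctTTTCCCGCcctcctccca
PCNA, CDC7 and TIPIN were not called in DU145 and fell in C4-2.
PCNA chr20:5126664-5126691, minus strand: agcgtcagggGCGGGAAAaggcgtgcgt
CDC7 chr1:91501034-91501061, plus strand: tgcagttcctTTTCCCGCcccccttcgg
TIPIN chr15:66356730-66356757, minus strand: cacggatttgGCGCCAAAcgctgcgggc

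The opposite-strand form GCGGGAAA occurs in the sites shown for GINS3, RFC3, GINS2, CLSPN and PCNA. Its first base lay 5 bases before the RefSeq start in GINS3 and CLSPN, 31 before in GINS2, 55 before in RFC3 and 59 before in PCNA. The GINS1 word began 5 bases past the RefSeq start. Of the 15 sites found in the 13 genes, 11 lay inside the gene span that the DU145 table gives, which reaches its most distant start, and 4 (in CLSPN, GINS1, PCNA and POLA1) did not lie wholly inside it. The 250 bases before the start of PCNA and of GINS2 are given in full to show the word beside CCAAT boxes (CCAAT or its opposite-strand form ATTGG), both in capitals.
PCNA chr20:5126623-5126872, minus strand: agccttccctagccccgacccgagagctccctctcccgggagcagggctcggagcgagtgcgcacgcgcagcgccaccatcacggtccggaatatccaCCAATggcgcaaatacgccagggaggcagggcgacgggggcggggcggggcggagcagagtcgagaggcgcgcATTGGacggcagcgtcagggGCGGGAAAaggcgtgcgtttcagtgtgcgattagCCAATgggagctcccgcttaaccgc
GINS2 chr16:85688955-85689204, minus strand: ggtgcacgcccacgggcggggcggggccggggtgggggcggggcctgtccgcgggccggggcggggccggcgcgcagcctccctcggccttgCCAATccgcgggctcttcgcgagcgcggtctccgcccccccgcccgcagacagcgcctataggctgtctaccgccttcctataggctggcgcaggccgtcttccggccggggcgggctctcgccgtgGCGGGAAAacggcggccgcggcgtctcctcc

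PCNA, whose clamp transcript was the most abundant of the fork genes per length in DMSO cells of both lines, had 3 CCAAT boxes in those 250 bases, and GINS2 had 1. The median log2 fold change of the 13 genes with an E2F word was -0.34 in DU145 and -1.45 in C4-2, and of those with a window and no such word it was -0.13 in DU145 (21 genes) and -1.19 in C4-2 (20 tested). Dropping the first T, which includes every match of the longer words, gave a match in 70.6% of the fork genes and 15.3% of all genes. A CCAAT box was found in 58.8% and 39.7%. The CHR element, searched as TTTGAA or TTCGAA on both strands, was found in 5.88% and 19.5%. A match describes letters in a window and shows no binding.

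**Figure D2:**
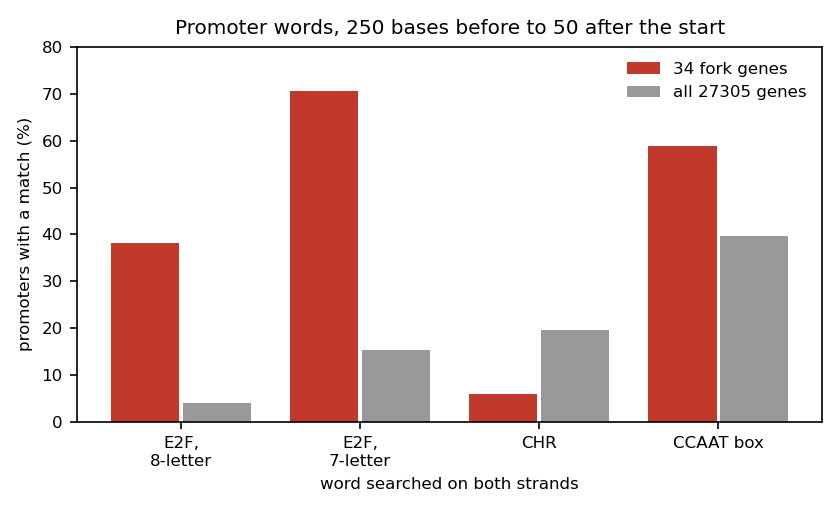
Share of promoters (%) with each word on either strand in the window of 250 bases before to 50 after the start, for the 34 fork genes with a window (red) and all 27305 genes (grey). The 8-letter E2F words were found in 38.2% of fork genes and 3.99% of all genes, whereas the CHR element was found in 5.88% and 19.5%. All genes were not matched to the fork genes in base composition.

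Of the 9 origin firing genes, 4 rose in DU145 and 2 fell there, and all 9 fell in C4-2, with a median log2 fold change of -1.38. ORC6 (ENSG00000091651, chr16:46689643-46698394, plus strand), the smallest subunit of the origin recognition complex, had 95.01, 99.2 and 82.7 CPM in the DU145 palbociclib libraries, against 49.1, 50.7 and 49.8 CPM in the DU145 DMSO libraries. All 3 treated DU145 libraries lay above all controls, a log2 fold change of 0.91 ± 0.0785 (SE) with an edgeR adjusted p = 2.60e-08, the largest rise among the fork genes in that line. In C4-2 the same gene had 31.8, 27.98 and 30.5 CPM in the C4-2 palbociclib libraries, against 53.6 and 60.02 CPM in the C4-2 DMSO libraries. The order was reversed there without overlap, at -0.95 ± 0.11 (SE) and an adjusted p = 2.68e-09. ORC1, the largest subunit of the complex, was not called in DU145, with 53.05 ± 0.478 CPM with palbociclib and 50.4 ± 1.47 CPM with DMSO, and fell to 0.313 times its DMSO level in C4-2 (log2 fold change -1.67).

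The GINS complex, a ring of 4 different subunits within the CMG helicase, did not move as a unit in DU145. GINS3 had 23.96, 21.2 and 22.4 CPM in the DU145 palbociclib libraries, against 13.6, 15.98 and 15.2 CPM in the DU145 DMSO libraries. GINS4 had 72.98, 66.1 and 68.1 CPM in the DU145 palbociclib libraries, against 47.5, 48.5 and 51.6 CPM in the DU145 DMSO libraries. GINS1 had 54.4, 61.4 and 54.6 CPM in the DU145 palbociclib libraries, against 43.02, 41.5 and 39.6 CPM in the DU145 DMSO libraries. Each of these 3 subunits was higher in every palbociclib library than in every DMSO library, with log2 fold changes of 0.62 ± 0.103 (SE), 0.51 ± 0.0762 (SE) and 0.48 ± 0.0793 (SE) and adjusted p-values of 5.87e-05, 1.71e-05 and 4.93e-05. GINS2 (ENSG00000131153, chr16:85676198-85690073, minus strand), whose promoter is shown above, had 36.8, 35.4 and 34.4 CPM in the DU145 palbociclib libraries, against 49.5, 52.01 and 53.2 CPM in the DU145 DMSO libraries. It was thus lower in every treated library, at -0.51 ± 0.0782 (SE) with an adjusted p = 2.22e-05. Summed over the 4 subunits, the level was 184 ± 4.33 CPM in DU145 palbociclib libraries and 157 ± 3.104 CPM in DU145 DMSO libraries.

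In C4-2 all 4 GINS genes fell. GINS2 had 6.23, 4.6 and 3.85 CPM in the C4-2 palbociclib libraries, against 29.2 and 30.8 CPM in the C4-2 DMSO libraries. That is 6.35-fold lower, at -2.67 ± 0.21 (SE) and an adjusted p = 1.67e-14. GINS1 had 34.3, 31.8 and 31.1 CPM in the C4-2 palbociclib libraries, against 84.8 and 77.9 CPM in the C4-2 DMSO libraries. GINS3 had 13.2, 14.9 and 13.6 CPM in the C4-2 palbociclib libraries, against 26.7 and 39.8 CPM in the C4-2 DMSO libraries. GINS4 had 13.8, 14.9 and 13.03 CPM in the C4-2 palbociclib libraries, against 20.9 and 23.9 CPM in the C4-2 DMSO libraries. The groups of these 3 genes did not overlap, and their log2 fold changes were -1.38, -1.29 and -0.73. The summed GINS level was 65.1 ± 3.13 CPM in C4-2 palbociclib libraries and 167 ± 7.64 CPM in C4-2 DMSO libraries, 61.0% lower. GINS4 shares 23.6% of its exon bases with genes on the other strand, which had at most 5 counts in any library.

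CDC45 (ENSG00000093009, chr22:19479459-19520612, plus strand), the other partner of MCM in the helicase, had 58.97, 67.6 and 60.99 CPM in the DU145 palbociclib libraries, against 84.5, 80.6 and 86.3 CPM in the DU145 DMSO libraries. In DU145 it fell by 24.1% with no overlap (adjusted p = 2.10e-04). In C4-2 it had 4.15, 4.6 and 9.18 CPM in the C4-2 palbociclib libraries, against 39.5 and 42.1 CPM in the C4-2 DMSO libraries. The highest treated library lay far under the lowest control, at -2.76 ± 0.19 (SE), or 6.77-fold lower, with an adjusted p = 5.19e-16, the largest fall of all fork genes in that line. Neither gene of the kinase that fires origins was called in DU145, with log2 fold changes of -0.066 for CDC7, the catalytic subunit, and -0.11 for DBF4, its activating subunit. In C4-2 CDC7 fell by 1.401 on the log2 scale. DBF4 had 32.5, 27.2 and 33.2 CPM in the C4-2 palbociclib libraries, against 48.7 and 42.1 CPM in the C4-2 DMSO libraries, the smallest fall of the role in that line at -0.59.

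Polymerase and primase genes held the largest falls seen in DU145. PRIM1 (ENSG00000198056, chr12:56731596-56752373, minus strand), the catalytic subunit of primase, had 14.6, 12.3 and 13.2 CPM in the DU145 palbociclib libraries, against 38.12, 38.8 and 33.7 CPM in the DU145 DMSO libraries. It fell 2.71-fold, at -1.44 ± 0.0988 (SE) with an adjusted p = 1.54e-09. POLA2, the B subunit of polymerase alpha, had 11.4, 10.6 and 11.3 CPM in the DU145 palbociclib libraries, against 25.3, 24.8 and 22.9 CPM in the DU145 DMSO libraries. That fall was 2.15-fold, and the treated and control libraries were far apart. PRIM2, the large subunit of primase, moved the other way and had 46.6, 48.04 and 44.98 CPM in the DU145 palbociclib libraries, against 35.8, 38.8 and 30.4 CPM in the DU145 DMSO libraries. The groups did not overlap, and the log2 fold change was 0.44 ± 0.0884 (SE) with an adjusted p = 3.92e-04. POLA1, the catalytic subunit of polymerase alpha, fell by 27.4% (log2 fold change -0.46). The 2 primase subunits, which work as a pair, therefore changed in opposite directions in DU145, and per length they stood at 5.49 CPM per kb with palbociclib and 15.1 CPM per kb with DMSO for PRIM1 and 9.97 CPM per kb with palbociclib and 7.5 CPM per kb with DMSO for PRIM2.

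In C4-2 these 4 genes all fell. PRIM1 had 12.5, 15.3 and 15.1 CPM in the C4-2 palbociclib libraries, against 46.4 and 36.1 CPM in the C4-2 DMSO libraries. POLA2 had 2.42, 3.83 and 2.07 CPM in the C4-2 palbociclib libraries, against 10.3 and 6.96 CPM in the C4-2 DMSO libraries. PRIM2 had 28.03, 26.1 and 26.9 CPM in the C4-2 palbociclib libraries, against 42.7 and 36.5 CPM in the C4-2 DMSO libraries. None of the 3 overlapped between treatments, and the log2 fold changes were -1.58, -1.72 and -0.603, with POLA2 resting on 7 to 36 counts per library. PRIM1 fell in both lines, at -1.44 in DU145 and -1.58 in C4-2, and the test of the difference between lines gave 0.18 ± 0.201 (SE) with an adjusted p = 0.562. PRIM1 shares 21.6% of its exon bases with neighbours that include NACA, an abundant transcript with 5491 to 6900 counts per DU145 library. POLA2 shares 35.1% with AP000944.2, which had 10 to 57 counts per DU145 library. Reads in such stretches cannot be assigned to 1 gene with certainty.

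For polymerase epsilon, the leading-strand enzyme, POLE (its catalytic subunit) fell in both lines, 1.27-fold in DU145 and 2.81-fold in C4-2. POLE2, its B subunit, had 8.39, 7.58 and 7.56 CPM in the DU145 palbociclib libraries, against 14.1, 15.2 and 12.7 CPM in the DU145 DMSO libraries. It fell there at -0.81 ± 0.12 (SE) with an adjusted p = 1.58e-05. In C4-2 POLE2 had 8.998, 4.98 and 8.58 CPM in the C4-2 palbociclib libraries, against 11.2 and 9.95 CPM in the C4-2 DMSO libraries, and the value of -0.52 ± 0.25 (SE) missed the threshold with an adjusted p = 0.0872 although the groups did not overlap. For polymerase delta, the lagging-strand enzyme, none of POLD1, POLD2 and POLD3 was called in DU145, with log2 fold changes of 0.16, -0.13 and -0.11. POLD1 did pass the threshold as a rise without palbociclib replicate 1 (0.23, adjusted p = 0.0444) or DMSO replicate 3 (0.23, adjusted p = 0.037), and POLD2 as a fall without palbociclib replicate 3 (-0.203, adjusted p = 0.0083) or both libraries numbered 3 (-0.16, adjusted p = 0.00528). In C4-2 all 3 fell, POLD1 (the catalytic subunit) most, at -1.66 ± 0.14 (SE), and POLD2 and POLD3 at -0.62 and -0.83.

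**Figure D3:**
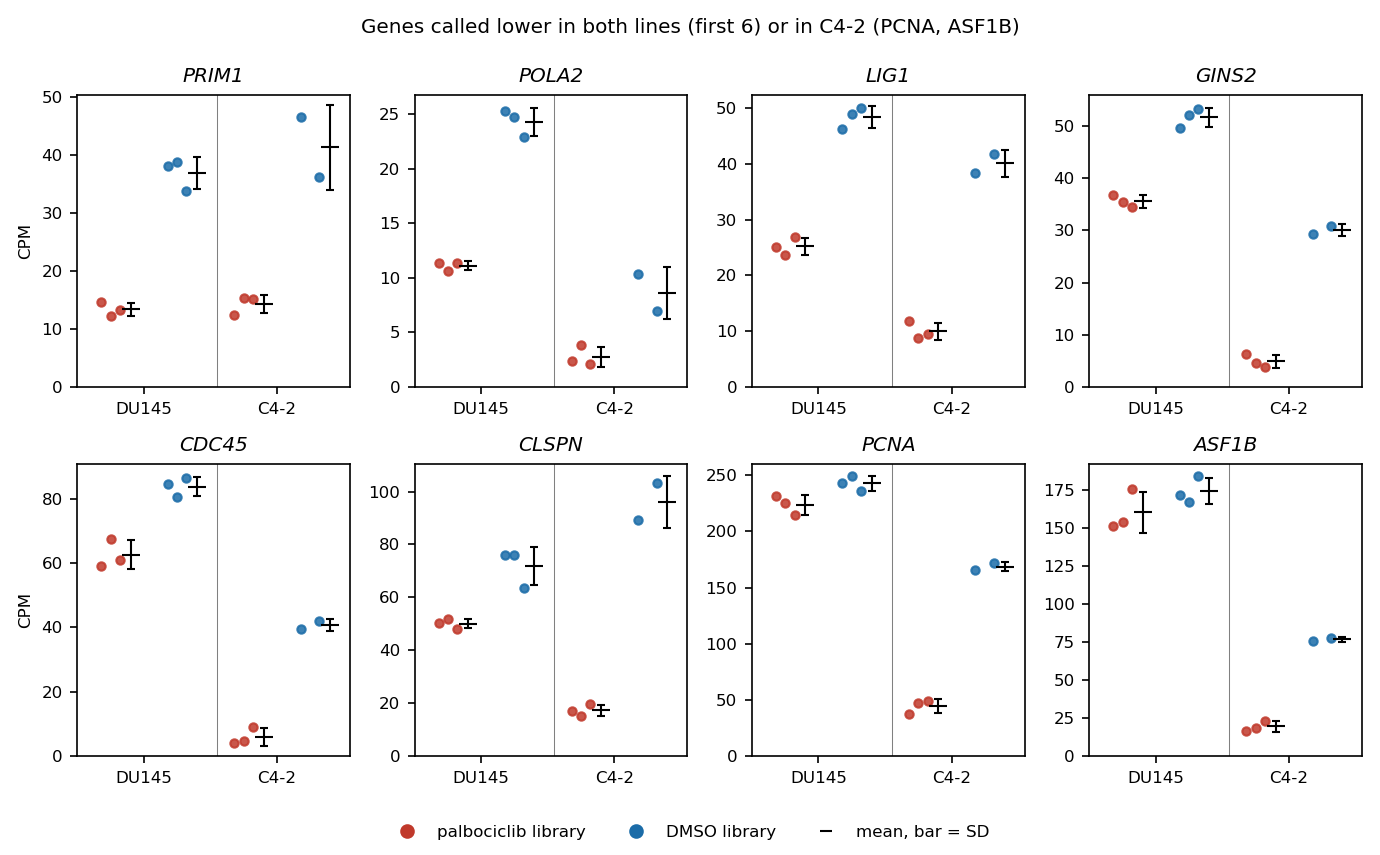
Level in CPM of 8 fork genes in each library, with palbociclib in red left of DMSO in blue for DU145 and then C4-2 (points are libraries, horizontal marks the mean, bars the SD). PRIM1, POLA2 and LIG1 separate by treatment in both lines, whereas ASF1B overlaps in DU145, and PCNA and ASF1B lie far apart by treatment in C4-2.

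Among the clamp and its loaders, PCNA (ENSG00000132646, chr20:5114953-5126626, minus strand) had 232, 225 and 214 CPM in the DU145 palbociclib libraries, against 243, 249 and 236 CPM in the DU145 DMSO libraries. The treated libraries were all lower, but the difference of -0.094 ± 0.0608 (SE) was not called (adjusted p = 0.198). In C4-2 it had 37.7, 47.1 and 48.8 CPM in the C4-2 palbociclib libraries, against 166 and 172 CPM in the C4-2 DMSO libraries. The treated libraries lay far under the controls, a log2 fold change of -1.96 ± 0.0837 (SE) or 3.89-fold lower, with an adjusted p = 2.56e-23. Its 3 annotated pseudogenes had 0 counts in every DU145 library. Per length, PCNA was at 152 CPM per kb with palbociclib and 165 CPM per kb with DMSO in DU145 and at 30.3 CPM per kb with palbociclib and 115 CPM per kb with DMSO in C4-2.

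The RFC clamp loader, a complex of 5 subunits, varied in its response among subunits. RFC3, a small subunit, had 73.3, 76.5 and 65.2 CPM in the DU145 palbociclib libraries, against 62.2, 67.6 and 53.7 CPM in the DU145 DMSO libraries. These groups overlapped, since palbociclib replicate 3 lay under DMSO replicate 2, and the call of 0.25 ± 0.0861 (SE) with an adjusted p = 0.0176 was lost without DU145 palbociclib replicate 1, palbociclib replicate 2 or DMSO replicate 3 (adjusted p = 0.0525, 0.0838 and 0.0923). In C4-2 RFC3 had 13.2, 13.4 and 13.9 CPM in the C4-2 palbociclib libraries, against 34.1 and 37.8 CPM in the C4-2 DMSO libraries, a log2 fold change of -1.45 ± 0.15 (SE) with no overlap. RFC1, the large subunit, fell in DU145 at -0.39 ± 0.0729 (SE). In C4-2 it had 121, 110 and 110.4 CPM in the C4-2 palbociclib libraries, against 151 and 144 CPM in the C4-2 DMSO libraries. That was the smallest called change among the fork genes of C4-2, at -0.42 ± 0.0685 (SE), and the difference between lines was 0.064 (adjusted p = 0.741). RFC2 fell at -0.32 in DU145 and -1.22 in C4-2. RFC4 was at -0.098 in DU145, not called (-0.13 and called without both libraries numbered 3, adjusted p = 0.036), and fell at -0.74 in C4-2. RFC5 fell at -0.19 in DU145, where its adjusted p = 0.0382 became 0.0734 with DESeq2, and at -1.07 in C4-2. That DU145 call was also lost without palbociclib replicate 2, palbociclib replicate 3, DMSO replicate 1 or DMSO replicate 2 (adjusted p = 0.121, 0.0787, 0.192 and 0.0842).

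DSCC1 and CHTF18, subunits of the alternative CTF18 loader, which also places PCNA at forks, fell in both lines. DSCC1 had 17.7, 20.1 and 15.2 CPM in the DU145 palbociclib libraries, against 33.02, 33.7 and 32.8 CPM in the DU145 DMSO libraries. It was the largest DU145 fall of the role, at -0.88 ± 0.102 (SE) with an adjusted p = 9.71e-07. In C4-2 DSCC1 had 9.69, 16.9 and 19.5 CPM in the C4-2 palbociclib libraries, against 41.8 and 43.4 CPM in the C4-2 DMSO libraries, with the treated libraries spread widely but all lower (log2 fold change -1.499). CHTF18, the large subunit, fell at -0.35 in DU145 and -0.98 in C4-2.

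Genes of RPA, which coats single-stranded DNA, had the smallest median fall of any role in C4-2, at a log2 fold change of -0.68. RPA3, the small subunit, had 48.3, 46.8 and 45.2 CPM in the DU145 palbociclib libraries, against 61.7, 63.5 and 51.2 CPM in the DU145 DMSO libraries. It fell in DU145 at -0.31 ± 0.0837 (SE). RPA1, the large subunit, fell there at -0.19 (adjusted p = 0.0166, and 0.0512 without DMSO replicate 3). RPA2, the middle subunit, had 54.6, 58.7 and 51.7 CPM in the DU145 palbociclib libraries, against 56.2, 56.8 and 57.9 CPM in the DU145 DMSO libraries. Its groups overlapped, and the log2 fold change of -0.027 was not called. In C4-2 RPA1 had 114, 106 and 109.8 CPM in the C4-2 palbociclib libraries, against 176 and 186 CPM in the C4-2 DMSO libraries. RPA3 had 17.3, 20.3 and 18.4 CPM in the C4-2 palbociclib libraries, against 26.7 and 25.9 CPM in the C4-2 DMSO libraries. Both fell without overlap, at -0.76 ± 0.0647 (SE) and -0.54 ± 0.15 (SE), the second with an adjusted p = 0.00307 by edgeR and 0.0508 by DESeq2. RPA2 fell at -0.68 in that line.

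Okazaki fragment processing held the largest rise in CPM in DU145 and a fall in both lines. FEN1 (ENSG00000168496, chr11:61792637-61797244, plus strand), the nuclease that trims the flap of each fragment, had 459, 470.4 and 449 CPM in the DU145 palbociclib libraries, against 265, 269.7 and 274 CPM in the DU145 DMSO libraries. Each treated library lay above each control, and the log2 fold change was 0.79 ± 0.0586 (SE), or 1.73-fold higher, with an adjusted p = 3.89e-09. Per length this put FEN1 at 185 CPM per kb with palbociclib and 109 CPM per kb with DMSO in DU145, with PCNA at 152 CPM per kb in the same treated cells. FEN1 shares 8.68% of its exon bases with neighbours, FADS2 and TMEM258. In C4-2 FEN1 had 25.95, 29.5 and 26.3 CPM in the C4-2 palbociclib libraries, against 73.1 and 79.3 CPM in the C4-2 DMSO libraries. The fall there was 2.89-fold with no overlap, at -1.53 ± 0.11 (SE) and an adjusted p = 8.36e-16.

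LIG1 (ENSG00000105486, chr19:48115445-48170603, minus strand), the ligase that seals the nick FEN1 leaves, fell in both lines. It had 25.05, 23.7 and 26.8 CPM in the DU145 palbociclib libraries, against 46.3, 48.9 and 50.1 CPM in the DU145 DMSO libraries. In C4-2 it had 11.8, 8.82 and 9.47 CPM in the C4-2 palbociclib libraries, against 38.4 and 41.8 CPM in the C4-2 DMSO libraries. The groups were well apart in each line, with log2 fold changes of -0.92 ± 0.0848 (SE) in DU145 and -2.04 ± 0.16 (SE) in C4-2 and adjusted p-values of 6.30e-08 and 2.42e-14. FEN1 and LIG1 act one after the other on the same fragment, and in DU145 they moved in opposite directions. RNASEH2A, the catalytic subunit of RNase H2, had 35 to 52 counts per DU145 library (2.45 ± 0.304 CPM with palbociclib and 2.77 ± 0.377 CPM with DMSO) and was not called. Its 0 to 2 counts per C4-2 library were under the limit of 3 counts that a count of 0 allows (0.86 to 1.15 CPM), so no fold is given. It shares 30.8% of its exon bases with THSD8, which had 1 to 5 counts per DU145 library.

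**Figure D4:**
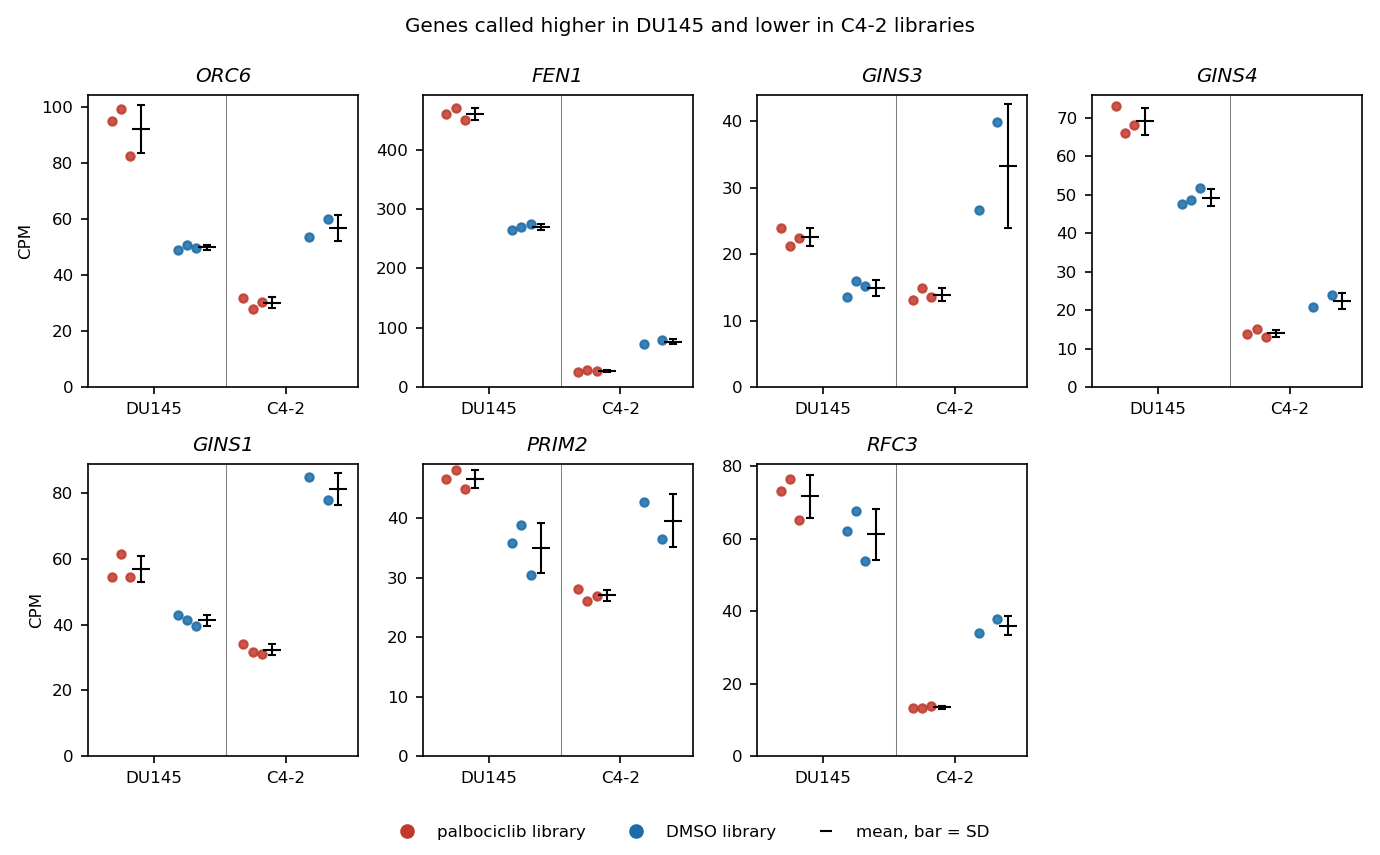
Level in CPM of the 7 fork genes called higher in DU145 and lower in C4-2, per library, with palbociclib in red left of DMSO in blue in each line (horizontal marks show the mean, bars the SD). In DU145 the treated libraries of 6 genes lie above all DMSO libraries and those of RFC3 overlap, while in C4-2 all treated libraries lie below. The genes were chosen by these calls, so their separation is not a further result.

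The genes that couple helicase and polymerase or protect a paused fork fell in DU145 for 3 of the 4 and in C4-2 for all 4. CLSPN (ENSG00000092853, chr1:35720218-35769967, minus strand), claspin, fell in DU145 at -0.49 ± 0.07996 (SE). In C4-2 it had 16.96, 15.3 and 19.5 CPM in the C4-2 palbociclib libraries, against 89.1 and 103 CPM in the C4-2 DMSO libraries. It was 5.65-fold lower there, at -2.499 ± 0.12 (SE) with an adjusted p = 7.91e-22. WDHD1, also called AND-1, had 39.9, 35.8 and 33.9 CPM in the DU145 palbociclib libraries, against 58.7, 65.02 and 57.1 CPM in the DU145 DMSO libraries. This was the largest DU145 fall of the role, at -0.699 ± 0.0836 (SE) with an adjusted p = 1.46e-06. In C4-2 WDHD1 had 34.95, 36.4 and 36.7 CPM in the C4-2 palbociclib libraries, against 74.8 and 84.2 CPM in the C4-2 DMSO libraries, the smallest fall of the role at -1.18 ± 0.102 (SE). TIMELESS and TIPIN form the fork protection complex. TIMELESS fell 1.28-fold in DU145 and 2.68-fold in C4-2. TIPIN had 8.57, 8.79 and 8.34 CPM in the DU145 palbociclib libraries, against 8.81, 9.16 and 8.05 CPM in the DU145 DMSO libraries. These values overlapped almost fully. In C4-2 TIPIN fell at -1.44 ± 0.19 (SE). TIPIN shares 21.0% of its exon bases with the pseudogene RPL9P25.

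Of the 3 chromatin assembly genes, 0 were called in DU145 (also 0 at an unadjusted p under 0.05, and 0 by DESeq2) and all 3 fell in C4-2. ASF1B, a chaperone of histones H3 and H4, had 151, 154 and 176 CPM in the DU145 palbociclib libraries, against 171, 167 and 184 CPM in the DU145 DMSO libraries. CHAF1A, the large subunit of CAF-1, had 162, 157 and 178 CPM in the DU145 palbociclib libraries, against 160.5, 156 and 180.5 CPM in the DU145 DMSO libraries. Both pairs of groups overlapped, and the log2 fold changes were -0.096 ± 0.0739 (SE) and 0.022 ± 0.0757 (SE). ASF1B did pass the threshold without DU145 palbociclib replicate 3, at -0.17 and an adjusted p = 0.0299, and without both libraries numbered 3, at -0.13 and an adjusted p = 0.0246. In C4-2 ASF1B had 16.6, 18.4 and 23.4 CPM in the C4-2 palbociclib libraries, against 75.7 and 77.9 CPM in the C4-2 DMSO libraries. It fell 4.02-fold, at -2.01 ± 0.12 (SE) with an adjusted p = 3.18e-18. CHAF1B, the middle subunit of CAF-1, had 21.5, 24.9 and 20.4 CPM in the C4-2 palbociclib libraries, against 49.3 and 48.7 CPM in the C4-2 DMSO libraries. CHAF1A fell at -1.49, and CHAF1B at -1.195.

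Whether the lines differed was tested directly as the interaction, meaning the log2 fold change of DU145 minus that of C4-2, in a joint fit of 18139 genes. Of the 39 fork genes 33 had a positive, called interaction, 0 a negative one (also 0 by DESeq2), and 6 were not called, beside 18.4% of all genes called higher and 15% called lower. No fork gene had an unadjusted p under 0.05 in the negative direction. The median interaction of the fork genes was 1.10, and over all genes it was -0.02. The largest were CDC45 at 2.400 ± 0.22 (SE) and FEN1 at 2.36 ± 0.12 (SE), with adjusted p-values of 2.59e-10 and 1.70e-16. GINS2 followed at 2.19 and CLSPN at 2.05. For CDC45, GINS2 and CLSPN this meant a smaller fall in DU145, and for FEN1 a rise there. All 9 origin firing genes and all 3 chromatin assembly genes were called, with medians of 1.90 and 1.55. The 6 without a called difference were PRIM1, POLA2, POLE2, RFC1, RPA3 and RNASEH2A. For POLE2, the single negative estimate among them was -0.26 ± 0.28 (SE) with an adjusted p = 0.548. The estimate for RNASEH2A is not interpretable, since its C4-2 counts were 0 to 2. The tables of the lines were counted separately, and line and table cannot be told apart.

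**Figure D5:**
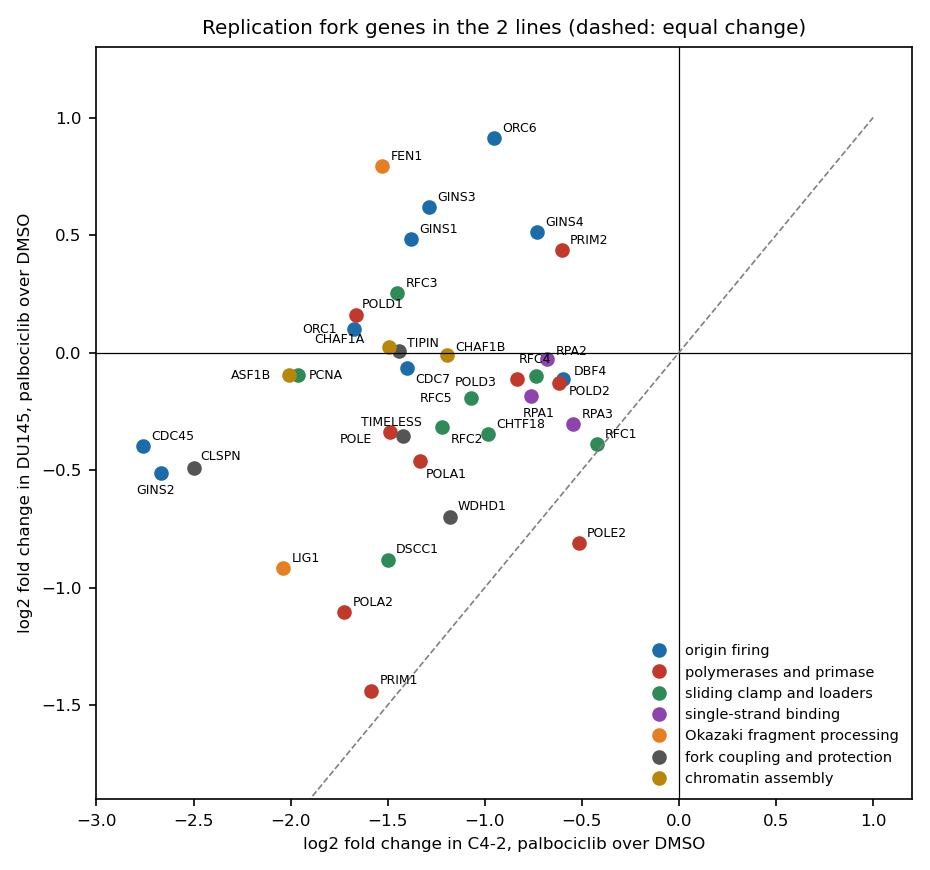
Log2 fold change of the 38 fork genes tested in both lines, with C4-2 on the horizontal axis and DU145 on the vertical axis, coloured by role, and a dashed line where the changes would be equal. Every gene lies left of 0 in C4-2, and all except POLE2 lie above the dashed line.

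As context, 34 further genes of replication initiation, the fork and chromatin assembly were examined. In DU145, 4 rose and 14 fell of 34 tested, and in C4-2 0 rose and 23 fell of 33 tested by edgeR (also 0 rose at an unadjusted p under 0.05, and 0 by DESeq2), with medians of -0.10 and -0.63. Over all tested genes, 28.8% were called higher and 29.2% lower in DU145, and 25.2% and 26.6% in C4-2, by edgeR. DESeq2 called 4 context genes higher and 13 lower in DU145, beside 4186 and 3930 of all 19621 tested genes. In C4-2 it called 20 context genes lower, beside 2298 of all 13177 tested genes. In DU145 the falls with the smallest adjusted p-values were in MCMBP, which binds MCM proteins, at -0.74 ± 0.0711 (SE), CHTF8, a small subunit of the CTF18 loader, at -0.52 ± 0.067, and SUPT16H, the partner of SSRP1 in the histone chaperone FACT, at -0.51 ± 0.0666. The rises were TOP1, the topoisomerase that relieves twist ahead of the fork, at 0.84 ± 0.0637, DBF4B, a relative of DBF4 that also binds CDC7, at 0.74 ± 0.0731, CINP at 0.54 ± 0.0744, and POLE3, an accessory subunit of polymerase epsilon, at 0.24. In C4-2 the smallest adjusted p-values belonged to NASP, a histone chaperone, at -1.27 ± 0.0606, MCM10, which helps activate the helicase, at -2.81 ± 0.156, and SSRP1, a subunit of FACT, at -0.82 ± 0.0592. DBF4B averaged 134 ± 7.85 CPM with palbociclib and 82.0 ± 4.52 CPM with DMSO in DU145 (SD, n = 3 each), while DBF4 itself averaged 31.6 ± 3.56 CPM with palbociclib and 34.7 ± 2.35 CPM with DMSO. MCM10 averaged 63.4 ± 1.87 CPM with palbociclib and 66.6 ± 3.22 CPM with DMSO in DU145, and 8.22 ± 1.51 CPM and 55.5 ± 3.98 CPM in C4-2. Of the 34 context genes, 18 had a positive called interaction and 2 a negative one by edgeR, beside 18.4% and 15% of all genes. DESeq2 called 18 positive and 1 negative, beside 2797 and 2539 of all 14442 tested genes. By edgeR the largest positive one was that of MCM10, at 2.80 (adjusted p = 3.82e-14). The negative ones by edgeR were CHTF8 at -1.66 (adjusted p = 0.0446) and NAP1L4, a histone chaperone, at -0.74 (adjusted p = 0.00687). CHTF8 had 2 to 7 counts per C4-2 library and was not tested in that line alone.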

How the data were processed

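The authors deposited raw read counts per gene in 1 table per line. Per the file headers, the C4-2 counts were made with featureCounts 2.0.1 on Ensembl 107 exons, without strand. How the DU145 counts were made is not given in the sources used here. Coordinates are those of the DU145 table (hg38, per the submitters' processing notes). Its lengths equal the exon lengths of GENCODE 29 for all 39 genes and were used for CPM per kb in both lines.

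The genes, the lists, the tests and the alternatives were chosen with earlier results of these data known. The test used edgeR 4.0.16 under R 4.3.3 (filterByExpr by group, TMM, quasi-likelihood F test, Benjamini-Hochberg adjustment over all tested genes, threshold 0.05), each line alone, and jointly for the interaction. Standard errors came from the coefficient and its F statistic. DESeq2 1.42.0, other scalings and filters, left-out libraries and a replicate block were alternatives. The limit that a count of 0 allows covers counting error only. Values per library are given for the genes with the lowest and highest change in each role and line and for those called in opposite directions. In each line, of the context genes, the 3 smallest adjusted p-values per direction are named (POLE3, the context interactions and the MCM10 and DBF4B levels were added after seeing the values).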

Additional observations from a re-analysis of the deposited data

Results flagged for a closer look

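The response to palbociclib differed between the lines, by the interaction test, for 33 of the 39 fork genes. Each value here is the interaction on the log2 scale, DU145 minus C4-2, and each was positive. Among origin firing genes it was 2.400 for CDC45, 2.19 for GINS2, 1.94 for GINS3, 1.901 for ORC6, 1.896 for GINS1, 1.81 for ORC1, 1.37 for CDC7, 1.28 for GINS4 and 0.52 for DBF4. Among polymerase and primase genes it was 1.86 for POLD1, 1.19 for POLE, 1.07 for PRIM2, 0.91 for POLA1, 0.76 for POLD3 and 0.52 for POLD2. For the clamp and its loaders it was 1.902 for PCNA, 1.74 for RFC3, 0.94 for RFC2, 0.91 for RFC5, 0.67 for RFC4, 0.67 for CHTF18 and 0.65 for DSCC1. Of the RPA genes, RPA2 had 0.69 and RPA1 0.61. FEN1 had 2.36 and LIG1 1.16. Fork coupling genes had 2.05 for CLSPN, 1.48 for TIPIN, 1.102 for TIMELESS and 0.52 for WDHD1. ASF1B had 1.95, CHAF1A 1.55 and CHAF1B 1.22. The calls of DSCC1, CHTF18 and DBF4 (adjusted p = 0.0193, 0.0160 and 0.0187) were lost in some of the fits that left out 1 library. Without C4-2 palbociclib replicate 1, DSCC1 was at 0.40 (adjusted p = 0.151) and CHTF18 at 0.53 (adjusted p = 0.0858). Without C4-2 DMSO replicate 1, DSCC1 was at 0.68 (adjusted p = 0.0551), CHTF18 at 0.46 (adjusted p = 0.242) and DBF4 at 0.398 (adjusted p = 0.184). DSCC1 was also not called without C4-2 DMSO replicate 2 (adjusted p = 0.0632) or DU145 palbociclib replicate 2 (adjusted p = 0.0523), nor DBF4 without C4-2 palbociclib replicate 2 (adjusted p = 0.0737). With 2 or 3 libraries a group, no gap test was run for an outlying library within a single gene.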

How the results depend on the processing

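Across the alternatives run, 36 to 37 fork genes fell in C4-2, 6 to 8 rose and 17 to 22 fell in DU145, and 30 to 33 had a positive called interaction. The calls over all genes moved with the setting too. In C4-2, 3173 of 11943 tested genes were called lower in the main fit and 2298 of 13177 with DESeq2. In DU145, 4431 of 15361 were called higher and 4493 lower in the main fit. The labels do not say whether the replicate numbers pair the libraries. Same-numbered deviations from the group mean correlated at 0.0200, 0.0358 and 0.128 in DU145 and 0.00677 and 0.0292 in C4-2. In DU145, number 3 of 1 treatment against number 1 or 2 of the other gave -0.0874 to -0.0503. Number 1 against number 2 gave 0.0612 and 0.0364 there. Whether the DU145 libraries numbered 3 shared an effect was not tested. With the replicate block, 8 rose and 22 fell in DU145 (POLD1 gained as a rise, and POLD2, POLD3, PCNA and ASF1B as falls, with adjusted p-values of 0.00446, 0.00618, 0.0462, 0.0379 and 0.0423), 37 fell in C4-2 and 33 interactions were called. Over all genes, the block called 4957 higher and 4996 lower of 15361 in DU145, and 2919 lower of 11943 in C4-2. It called 3430 interactions higher and 2607 lower of 18139. The interactions lost in some settings were those of DBF4 (also with DESeq2, adjusted p = 0.0533), DSCC1 and CHTF18. With library totals in place of TMM, the median interaction of all genes was -0.12, that of the fork genes 0.998, and DBF4 and DSCC1 were not called, at 0.41 (adjusted p = 0.0644) and 0.55 (adjusted p = 0.0506). Without C4-2 DMSO replicate 1, 30 interactions were called.

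Signs turned only for values that were not called. In DU145, TIPIN was at -0.018 with library totals, -0.017 with no filter, -0.000496 with the stricter filter and -0.024 without both libraries numbered 3. CHAF1A was at -0.00189 with library totals and -0.00119 with no filter. RPA2 and CHAF1B were at 0.030 and 0.041 without both libraries numbered 3. Leaving out 1 library gave -0.038 to 0.038 for TIPIN, -0.034 to 0.095 for CHAF1A, -0.0598 to 0.039 for CHAF1B, -0.16 to 0.0076 for CDC7 and -0.066 to 0.016 for RPA2. For the interaction, RFC1 was at -0.041 with library totals and RNASEH2A at -0.30 with the replicate block. Leaving out 1 library gave -0.027 to 0.36 for PRIM1 and -4.49 to 1.43 for RNASEH2A. The cause was not tested. The E2F share of 38.2% was 32.4% in a window from 100 bases before the start (all genes 2.07%) and 70.6% with 7-letter words. Depth limits C4-2 most, where CDC45, GINS2 and POLA2 had as few as 12, 12 and 7 counts in a library.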
